A study of Mus musculus with 68 samples.

Results

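The TM response of B6 fibroblasts was followed in 4 RNA-seq libraries, 2 from control cells and 2 from cells treated with tunicamycin (TM), out of 68 libraries in the whole series. They are all the libraries analysed here of B6, the inbred strain C57BL/6J, and every one of the 13197 genes listed for them was taken, whether induced or lowered. The cells were mouse embryonic fibroblasts (MEFs), primary cells grown from embryos, which the study's methods describe as pooled from several female embryos of 1 litter. Control cells, replicates 2 and 3, received 0.1% DMSO for 4 h, and TM cells, replicates 1 and 3, received 2 ug/ml of TM in DMSO for 4 h. The other libraries, from 7 further founder strains (129S1Sv/ImJ, A/J, CAST/EiJ, NOD/ShiLtJ, NZO/H1LtJ, PWK/PhJ and WSB/EiJ) and from 5 F1 crosses of B6 (named x129, xCAST, xNOD, xNZO and xWSB), treated alike, serve below only for comparison. The question is which RNAs respond to endoplasmic reticulum (ER) stress within a strain.

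TM blocks the first step of N-linked glycosylation, so that new glycoproteins fold poorly in the ER. The ER answers through the unfolded protein response, whose sensors are Ire1, which splices Xbp1 mRNA and degrades some ER-bound mRNAs, Perk, which slows translation and raises Atf4 and Chop, and Atf6, which is cut in the Golgi to free a transcription factor. Together they raise chaperones and degradation factors of the ER and, where stress lasts, genes of cell death and inflammation.

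Values are the reads of a gene scaled by TMM to a common library size (scaled reads), without division by gene length, so levels of different genes are not compared. The B6 libraries held between 9651004 and 21530282 reads on genes. TM was compared with control for the 12684 genes whose value reached 0.5 in 2 or more of the 4 libraries. Changes are log2 fold changes of (value + 0.1), which understate the change of low genes, and p-values are from limma with Benjamini-Hochberg adjustment. A gene was called induced or lowered where the adjusted p was under 0.01 and the fold change 1.5 or more. Counts of list members at an unadjusted p below 0.05 are descriptive, without the share over all genes tested beside them. They are not read as a response of a list. In broad families that p was reached by 28 of 76 ribosomal protein genes and 27 of 76 respiratory chain genes. Replicate treatments were run side by side on cells pooled from the same litter, so the p-values measure the spread between these libraries, which may be technical. In bulk RNA, fewer cells of a type and less RNA per cell cannot be told apart.

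Fibroblast markers were at high values in all 4 libraries. Vim, an intermediate filament gene, lay between 5837 and 6612, Col1a1, a collagen I chain, between 3207 and 5189, and none of the 9 fibroblast markers tested was called. Of the 12 myeloid markers listed, whose values summed to between 45.5 and 48.3 in control and between 32.1 and 33.9 in TM, 2 were lowered (Cd68 and Lyz2) and none was induced. Neither marker was called without control replicate 2, without control replicate 3 or in 1 limma fit over the 40 founder libraries. Des, a muscle intermediate filament gene, had a log2 fold change of -0.31, and of the neural markers Nes and Sox2 had -0.16 and -1.20, none of them called. Cdh1, the epithelial cadherin, was at no more than 0.138. The 4 epithelial markers listed, Cdh1 included, summed to 11.8 and 10.9 in control and to 9.90 and 7.48 in TM. Of the 3 tested 1 was lowered, Krt8 (log2 fold change -0.93), which was called in no fit that left out 1 B6 library. Pecam1, an endothelial marker, was at no more than 0.314, and the 4 endothelial markers listed summed to between 3.85 and 5.28. All 4 Y-linked genes of the marker list were read in every library although the methods name female embryos. They summed to 92.3 and 78.7 in control and to 132.8 and 133.0 in TM, where 2 (Uty and Ddx3y) passed the test, and none did once transcript GC content and length were corrected for. Xist, expressed from the inactive X chromosome, lay between 70.5 and 85.1.

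TM changed far more genes moderately than strongly in B6. Of the 12684 genes tested, 639 (5.04%) were induced and 408 (3.22%) were lowered. Of the induced genes 200 rose by at least 2 fold, 40 by at least 4 fold and 17 by at least 8 fold. Among the 17, Tnf, Csf2, Clec4e, Gpr84, Acod1, Ccl3 and Lcn2 had 0 to 3 reads over both control libraries. Their fold changes depend on the added 0.1. Of the lowered genes 68 fell by at least 2 fold and 5 by at least 4 fold. Some lowered genes were as low in TM: Cfd and Syp had 0 reads over both TM libraries and Snap25 had 3. The median log2 fold change was 0.82 among induced genes, -0.75 among lowered genes and -0.01 over all genes tested. The induced genes held 3.14% of the signal on genes in control and 6.79% in TM, and the lowered genes 5.70% and 3.45%. With 2 libraries a group the calls lean on limma's estimate of the spread from genes of like level: without that trend, 14 genes were induced and 3 lowered, whereas edgeR's quasi-likelihood test on the recovered reads called 656 and 428. Without control replicate 3 the counts were 360 and 182, and without control replicate 2 they were 579 and 204. In 1 limma fit over the 40 founder libraries, which share 1 estimate of the spread, they were 257 and 62, and with a replicate block in that fit 18 and 0, with 244 lowered at an unadjusted p below 0.05.

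**Figure D1:**
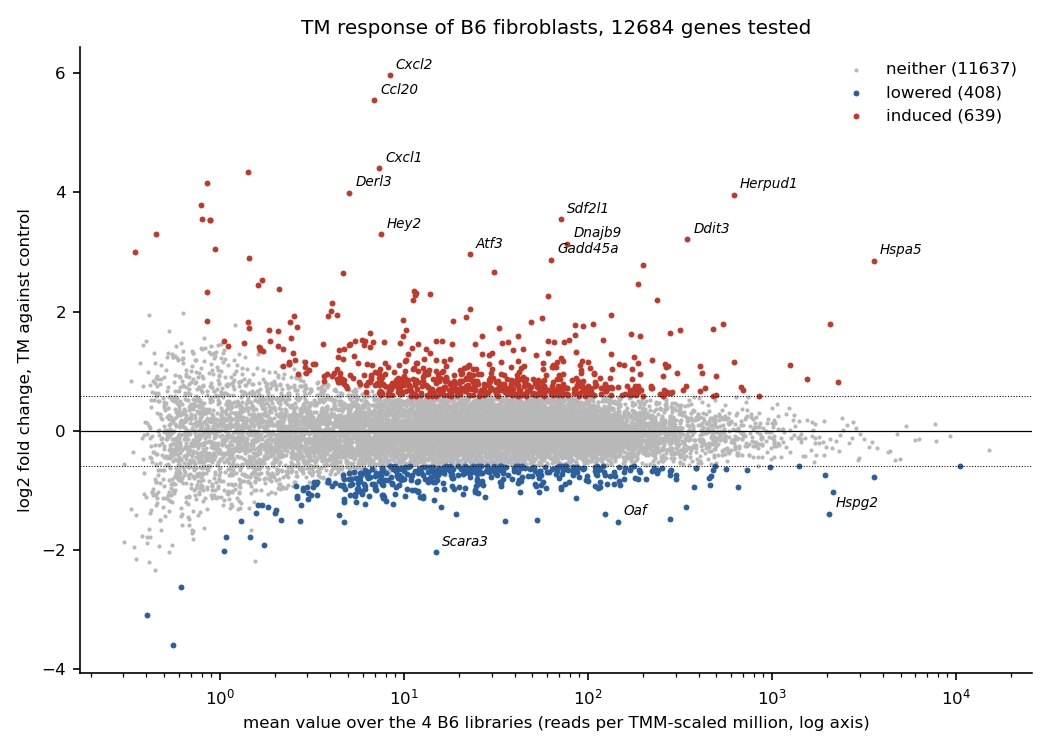
Each point is 1 of the 12684 genes, with its mean value over the 4 B6 libraries on a log axis (scaled reads) against its log2 fold change, TM against control. Dotted lines mark a change of 1.5 fold. The 639 induced genes (red) reach 5.96 (Cxcl2), whereas among the lowered genes (blue) with a mean value of at least 2 the lowest is -2.03 (Scara3).

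The largest rises fell into a few kinds of genes. Among called genes with a mean value of at least 2, the 12 with the largest rise were Cxcl2, Ccl20 and Cxcl1, which encode chemokines, Derl3 and Herpud1, which act in the removal of misfolded proteins from the ER, Sdf2l1, Dnajb9 and Hspa5, which encode ER chaperones or co-chaperones, Ddit3 and Atf3, transcription factors of the stress response, Gadd45a, a growth arrest gene, and Hey2, a transcriptional repressor of the Notch pathway. Their fold changes ran from 7.22 in Hspa5 to 62.2 in Cxcl2. Hey2 was at 2.02 and 0.810 in control and at 12.7 and 14.4 in TM, so its control replicates differed more from each other, by their ratio, than those of the remaining 11. Gadd45a was at 15.3 and 15.1 in control and at 110.5 and 113.0 in TM, a log2 fold change of 2.87 ± 0.09 (SE) with an adjusted p of 3.51e-13 in limma.

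The genes that gained most reads are given next, a measure that grows with transcript length and does not rank genes by RNA molecules. Hspa5, which encodes Bip, the ER Hsp70, was at 917.8 and 821 in control and at 6382 and 6158 in TM. Its mean rose by 5400 scaled reads. The other 9 genes of the 10 with the largest gain in reads were Hsp90b1, Ptgs2, Herpud1, Calr, Pdia3, Hyou1, Ddit3, Pdia4 and Pdia6. All but Ptgs2, the inducible cyclooxygenase, and Ddit3 act in the folding of ER proteins or in their removal. Ptgs2 was already at 1752 and 1574 in control and rose 1.75 fold, to 3045 and 2785.

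Short promoter sequences are shown for 5 of these genes, since the response elements of the unfolded protein response were defined in promoters of this kind. They are the 3 induced genes with the largest change that hold an ER stress response element (ERSE, here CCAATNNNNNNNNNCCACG), the first that holds an amino acid response element (CARE, here TGATGNAA) and the first that holds an NF-kB motif (here GGG and TTTCC with 2 bases between them), each with a mean value of at least 2. Sequences are from RefSeq on GRCm38.p6, from 250 bases before to 50 after the gene's start, on the plus strand, which is the strand of all 5 genes. Capitals mark the matches, on either strand.
Derl3, chr10:75893148-75893447, ERSE on the minus strand: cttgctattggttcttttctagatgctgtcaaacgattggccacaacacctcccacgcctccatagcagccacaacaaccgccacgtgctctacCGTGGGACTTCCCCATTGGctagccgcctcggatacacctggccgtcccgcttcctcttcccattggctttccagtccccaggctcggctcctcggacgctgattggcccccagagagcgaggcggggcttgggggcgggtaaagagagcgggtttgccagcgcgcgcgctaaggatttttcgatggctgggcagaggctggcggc
Hspa5, chr2:34771840-34772139, ERSE on the plus strand: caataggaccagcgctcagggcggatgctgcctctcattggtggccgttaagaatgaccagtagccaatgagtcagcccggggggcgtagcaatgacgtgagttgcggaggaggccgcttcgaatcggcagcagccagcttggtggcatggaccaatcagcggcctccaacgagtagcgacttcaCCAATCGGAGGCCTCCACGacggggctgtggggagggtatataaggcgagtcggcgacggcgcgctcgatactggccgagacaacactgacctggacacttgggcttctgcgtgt
Creld2, chr15:88819396-88819695, ERSE on the minus strand: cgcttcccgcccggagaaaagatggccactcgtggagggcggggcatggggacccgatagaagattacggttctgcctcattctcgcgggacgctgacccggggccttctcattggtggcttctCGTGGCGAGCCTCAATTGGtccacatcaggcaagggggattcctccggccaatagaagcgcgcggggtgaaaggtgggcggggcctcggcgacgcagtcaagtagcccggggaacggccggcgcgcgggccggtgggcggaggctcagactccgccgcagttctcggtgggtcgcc
Herpud1, chr8:94386179-94386478, CARE on the minus strand and ERSE-II (ATTGG and CCACG with 1 base between them) on the plus strand: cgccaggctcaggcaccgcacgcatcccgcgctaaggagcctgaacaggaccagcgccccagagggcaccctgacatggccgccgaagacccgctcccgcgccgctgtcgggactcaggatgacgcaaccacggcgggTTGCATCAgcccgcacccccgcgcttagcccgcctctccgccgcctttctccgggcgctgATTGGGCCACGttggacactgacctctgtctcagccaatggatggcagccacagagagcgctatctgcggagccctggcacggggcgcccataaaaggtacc
Cxcl2, chr5:90903649-90903948, NF-kB motif at 97 and 78 bases before the start: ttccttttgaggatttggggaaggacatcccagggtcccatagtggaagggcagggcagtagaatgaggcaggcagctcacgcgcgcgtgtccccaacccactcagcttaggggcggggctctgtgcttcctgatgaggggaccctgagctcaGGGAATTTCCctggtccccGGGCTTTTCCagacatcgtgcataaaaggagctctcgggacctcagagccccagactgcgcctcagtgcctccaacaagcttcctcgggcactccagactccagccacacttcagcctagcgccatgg

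Of the 639 induced genes 512 matched a promoter, as did 305 of the lowered genes. An ERSE was found in 12 of the 512 (2.34%), in 0 of the 305 and in 5 of 9254 genes that were neither (0.0540%), against 0.137% of the 27025 genes with a promoter. The 12 were Derl3, Hspa5, Creld2, Ero1lb, Syvn1, Hsp90b1, Dnajc3, Zfp57, Pdia6, Alg12, Calr and Canx. All but Zfp57, a zinc finger gene, belong to protein folding, degradation or glycosylation in the ER. Their fold changes ran from 1.61 (Canx) to 15.9 (Derl3). ERSE-II was found in 4 of the 512 (0.781%) and in 0.0444% of all genes with a promoter.

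The CARE was found in 35 of the 512 promoters of induced genes (6.84%), in 1.64% of those of lowered genes, in 2.58% of those of genes tested that were neither and in 4.51% of all, which include genes not tested. The NF-kB motif was found in 3.71%, 0.656%, 1.95% and 1.89% of the same groups, and in 6 of the 37 genes that rose by at least 4 fold (Cxcl2, Ccl20, Cxcl1, Casp4, Fgf21 and Cxcl3). TGACGTG, the core of the UPR element, was found in 5.66%, 3.28%, 3.18% and 2.22%, and the AP-1 motif TGANTCA in 9.77%, 8.20%, 6.27% and 8.97%. In the same 37 genes the AP-1 motif was found in 6, ERSE in 5, the CARE in 4, TGACGTG in 2 and ERSE-II in 1. Matches of ERSE and TGACGTG overlapped in 2 promoters of the table, and those of ERSE and CARE in 0. A match is a string of letters, which was not tested as a site, and Ddit3, Sdf2l1 and Dnajb9 held none of ERSE, ERSE-II and CARE in these windows.

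ER chaperones had the highest share of induced genes among the ER lists. Of 16 members 11 were induced (68.8%, against 5.04% of all genes tested) and 0 lowered, with a median log2 fold change of 1.33. Sdf2l1, part of a Bip co-chaperone complex, was at 11.6 and 10.7 in control and at 130.0 and 133.1 in TM, and Dnajb9, a J protein of Bip, at 17.0 and 14.5 in control and at 141.1 and 137.5 in TM. In both genes the replicates of a group lay close together against the gap between the groups, which the call itself favours. Of the 639 induced genes 0 had overlapping groups. Creld2, an ER-resident protein with disulfide isomerase activity, rose from 53.1 and 47.7 to 364.1 and 328.4, a log2 fold change of 2.78 ± 0.08 (SE) with an adjusted p of 1.76e-13 in limma.

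Among the large chaperones, Hsp90b1, the ER Hsp90, was at 973.5 and 867.5 in control and at 3250 and 3143 in TM, and Hyou1, a nucleotide exchange factor of Bip, at 245.5 and 242.2 and at 884.1 and 799.8. Of the 11 induced chaperones the lectin chaperones of glycoproteins rose least, Calr 1.83 fold and Canx 1.61 fold. Dnajc1, Dnajc10, Sil1, Mesd and Sdf2 did not pass. Sdf2, the paralog of Sdf2l1, had a log2 fold change of -0.11, against 3.55 for Sdf2l1.

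Disulfide isomerases and Ero1 oxidases form and shuffle disulfide bonds. Of 18 tested 7 were induced (38.9%, against 5.04% of all genes tested) and 0 lowered (median 0.39). Ero1lb, an oxidase that recharges the isomerases, was at 4.42 and 3.34 in control and at 19.9 and 18.2 in TM (4.85 fold), and its paralog Ero1l at 134.6 and 129.7 and at 210.0 and 204.0 (1.57 fold). Pdia4 rose 3.27 fold, Pdia6 2.24 fold and Pdia3 2.14 fold. P4hb, another disulfide isomerase, was at 1121 and 1036 in control and at 1419 and 1406 in TM, a change of 1.31 fold that fell short of the fold threshold (adjusted p = 0.00065, limma).

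Of 32 genes of ER-associated degradation, which moves misfolded proteins to the proteasome, 8 were induced and 0 lowered, with a median of 0.19, and the remaining 24 lay between -0.24 and 0.41. Herpud1, a membrane scaffold of the retrotranslocation complex, was at 74.6 and 75.5 in control and at 1190 and 1147 in TM, a log2 fold change of 3.96 ± 0.07 (SE), and had the smallest adjusted p of the genes named here (1.63e-16, limma). Derl3, a derlin, rose from 0.414 and 0.608 to 8.49 and 10.7. It passed the filter only because of its TM libraries, so the share of the list induced leans upward. In the same membrane complex Syvn1, the ubiquitin ligase, rose 4.57 fold and Sel1l, its adaptor, 3.23 fold. Derl2 and Derl1, the other derlins, rose by 1.10 and 0.68 on the log2 scale. Edem1, which trims mannose, and Selenos, a membrane selenoprotein, were the remaining induced members. Vcp, the cytosolic ATPase of the pathway (0.13), and Os9, a lectin (0.16), did not pass. Of 36 proteasome genes 0 were called by limma or edgeR and 10 had an unadjusted p below 0.05, with a median of 0.01.

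**Figure D2:**
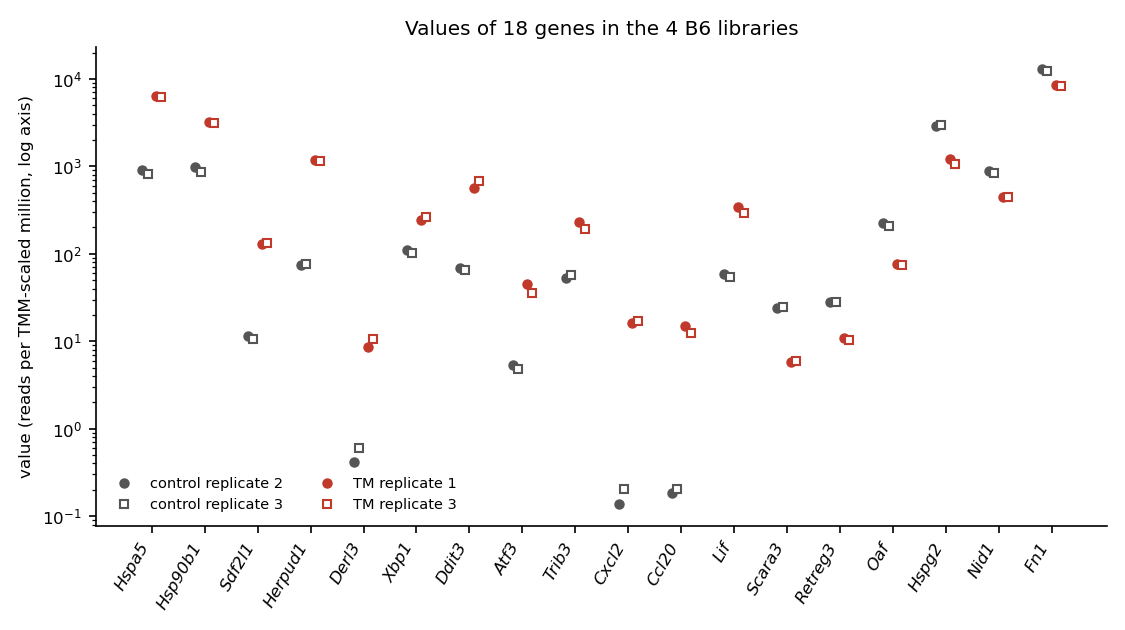
Values of 18 genes (scaled reads, log axis) in each of the 4 B6 libraries, control in grey and TM in red, with a filled circle for the lower and an open square for the higher replicate number. All 18 are called genes, and the call itself favours genes whose groups do not overlap. The replicates of a group lie close to each other, as in Herpud1 (74.6 and 75.5, then 1190 and 1147).

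Of the sensors themselves and their direct partners, 2 of 11 were induced (18.2%, against 5.04% of all genes tested). Xbp1, whose spliced form encodes a transcription factor, was at 111.5 and 101.5 in control and at 241.5 and 261.9 in TM (2.36 fold). Eif2ak3, which encodes Perk, was at 30.2 and 21.4 in control and at 42.6 and 42.2 in TM (1.67 fold). Ern1, which encodes Ire1, and Atf6 had changes of 1.31 and 1.35 fold, under the threshold. Without control replicate 3 the count was 1. These values count all reads of a gene and do not tell spliced Xbp1 from unspliced.

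Entry into the ER and glycosylation were looked at next. Of 24 members of the translocation list tested, 6 were induced and 0 lowered (median 0.31), among them Spcs3 (2.07 fold) and Spcs2 (1.78 fold), subunits of the signal peptidase, while Sec61a1, the channel subunit, had a log2 fold change of 0.18. Of 37 genes of N-glycosylation, the step that TM blocks, 5 were induced (13.5%, against 5.04%) and 1 was lowered (2.70%, against 3.22%). The median was 0.13. Alg12, a mannosyltransferase, rose 2.16 fold, and Dpagt1, which encodes the enzyme that TM inhibits, had a log2 fold change of 0.09. Without control replicate 3 the translocation count was 2, with transcript GC content and length corrected for it was 3, and in 1 fit over the 40 founder libraries it was 2. In the same order the induced count of the glycosylation list was 2, 3 and 1. Of 45 genes of COPI and COPII traffic 1 was induced (Bet1) and 1 lowered (Ergic1). The share of 2.22% in each direction was below the 5.04% induced and 3.22% lowered of all genes tested.

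The integrated stress response is the program downstream of Perk and Atf4. Of its 17 members 12 were induced (70.6%, against 5.04% of all genes tested) and none was lowered (median 1.06). Fgf21, 1 of the 12, passed the filter only through its TM libraries, so the share induced and the median lean upward. Atf4, whose protein is mainly controlled by translation, was at 343.3 and 345.4 in control and at 615.2 and 685.6 in TM (1.89 fold). Ddit3, which encodes Chop, was at 68.5 and 65.9 in control and at 569.2 and 682.7 in TM, a log2 fold change of 3.21 ± 0.08 (SE) with an adjusted p of 4.45e-14 in limma. Atf3 rose from 5.38 and 4.76 to 45.3 and 35.8. In Atf4, Ddit3 and Atf3 the TM replicates differed more from each other than the control replicates did.

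The targets of Atf4 and Chop differed in size. Trib3, a pseudokinase that restrains Atf4, was at 53.1 and 56.6 in control and at 232.9 and 191.5 in TM, and Chac1, which degrades glutathione, at 48.9 and 46.4 and at 165.8 and 165.0. Ppp1r15a, which encodes Gadd34, the phosphatase subunit that restores translation, rose 3.00 fold. Fgf21, a secreted hormone, rose from 0.460 and 0.405 to 3.02 and 2.93. Ddit4, Cebpb, Ppp1r15b, Atf5 and Tnfrsf10b did not pass, with log2 fold changes between -0.03 and 0.14. The count was 12 in every fit that left out 1 B6 library and with GC content and length corrected for, and 10 in 1 fit over the 40 founder libraries.

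The amino acid genes that Atf4 is known to control moved by smaller amounts. Of 19 genes of amino acid and one-carbon synthesis 6 were induced (31.6%, against 5.04% of all genes tested) and 0 lowered (median 0.27). The 6 were Gpt2, Cth, Got1, Psph, Mthfd2 and Asns. Asns, asparagine synthetase, was at 192.5 and 195.5 in control and at 295.4 and 297.8 in TM (1.53 fold). Of 15 amino acid transporters tested 5 were induced (33.3%), led by Slc7a11, the cystine transporter (2.79 fold), and its partner Slc3a2 (2.12 fold). The count of transporters was 3 without control replicate 2 and 2 in 1 fit over the 40 founder libraries.

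Of 20 cytosolic tRNA synthetases 6 were induced (30.0%, against 5.04% of all genes tested), namely Cars, Tars, Wars, Yars, Gars and Lars. Of the 20, 19 had values above control on average, with a median of 0.46. Of 17 mitochondrial tRNA synthetases 0 were called by limma or edgeR and 5 had an unadjusted p below 0.05, with a median of 0.08. The largest change of a cytosolic one was 1.68 fold (Cars, from 136.2 and 131.9 to 228.7 and 222.9), so the members lie close to the fold threshold. The cytosolic count was 3 without control replicate 3, 3 with GC content and length corrected for and 1 in 1 fit over the 40 founder libraries.

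Chemokines attract leukocytes, and several are induced through NF-kB. Of 14 tested 8 were induced (57.1%, against 5.04% of all genes tested) and 1, Cxcl14, was lowered (7.14%, against 3.22%). The median was 1.32, and 2 listed members were under the filter. Cxcl2, a neutrophil attractant, was at 0.138 and 0.203 in control and at 16.03 and 17.2 in TM, Ccl20 at 0.184 and 0.203 and at 14.8 and 12.4, and Cxcl1 at 0.644 and 0.506 and at 13.4 and 14.8. All 3 were near the limit of detection in control. Cxcl2 and Ccl20 passed the filter only through their TM libraries, so the share of chemokines induced and their median lean upward. Ccl2, a monocyte attractant, was well above it, at 21.3 and 20.7 in control and at 90.8 and 111.0 in TM (4.77 fold). Cxcl10, an interferon-induced chemokine, was at 0.184 and 0.709 in control and at 0.943 and 1.36 in TM and did not pass (adjusted p = 0.0570, limma). Which cells of the cultures held these chemokine RNAs was not tested.

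Of 17 cytokines listed 14 passed the filter, of which 6 were induced (42.9%, against 5.04% of all genes tested) and 0 lowered (median 1.00). Tnf, Csf2 and Il1b passed the filter only through their TM libraries, so the share induced and the median lean upward. Lif, a cytokine of the Il6 family, was the only one of the 6 with a value above 1 in control, at 59.4 and 54.5 against 340.9 and 291.0 in TM (5.53 fold). Tnf had 2 reads over both control libraries and 90 in TM, 47.9 times as many at equal depth, with a 95% exact interval for counting error of 12.9 to 401. Csf2 had 0 control reads and 48 in TM, at least 17.0-fold higher against a floor of 3 reads over the control group. Il1b had 0 and 21, at least 7.45-fold higher. Il6 was at 2.72 and 1.62 in control and at 2.45 and 3.51 in TM, with overlapping groups. The cytokine count was 3 without TM replicate 3 and 3 with GC content and length corrected for.

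Of 18 NF-kB subunits, inhibitors and target genes 10 were induced (55.6%, against 5.04% of all genes tested) and 0 lowered (median 0.74). Nfkbia, the inhibitor that NF-kB itself induces, was at 21.2 and 20.3 in control and at 69.5 and 56.8 in TM (3.02 fold), and Tnfaip3, which encodes the feedback inhibitor A20, at 23.1 and 24.7 and at 94.96 and 82.9 (3.70 fold). The subunits Relb, Rel, Nfkb2 and Nfkb1 rose by 1.35, 0.79, 0.69 and 0.68 on the log2 scale, and Rela had a change of 0.23 and did not pass. Traf1 rose 3.85 fold and Icam1, an adhesion molecule, 2.74 fold. Of 15 interferon-induced genes tested, 0 were called by limma or edgeR and 2 had an unadjusted p below 0.05, with a median of -0.08.

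Early response and arrest genes were mixed. Of 26 AP-1 and immediate early genes 5 were induced (19.2%, against 5.04% of all genes tested), namely Egr1, Myc, Egr2, Klf6 and Klf4. The only lowered member was the phosphatase gene Dusp1 (3.85%, against 3.22%). The induced count was 8 with GC content and length corrected for, 3 without control replicate 3 and 2 in 1 fit over the 40 founder libraries. Fos and Jun had log2 fold changes of 0.26 and -0.07. Of 15 genes of the p53 and growth arrest list 4 were induced (26.7%), led by Gadd45a. Cdkn1a, the p21 gene and a main p53 target, was at 229.3 and 213.9 in control and at 192.8 and 172.5 in TM (adjusted p = 0.0108, limma). Of 13 BCL2 family genes 0 were called by limma or edgeR and 10 had an unadjusted p below 0.05 (median 0.04). Pmaip1, the BH3-only gene with the largest change, had 0.57.

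Among secreted growth factors 5 of 22 were induced (22.7%, against 5.04% of all genes tested) and 0 lowered. Pdgfb was at 8.70 and 7.495 in control and at 30.8 and 27.3 in TM (3.56 fold), and the EGF receptor ligands Ereg and Areg rose 2.17 and 2.11 fold. In 1 fit over the 40 founder libraries 2 growth factors were induced. Mmp13, a collagenase, rose 3.12 fold, and Timp3, a metalloproteinase inhibitor, fell 1.50 fold, at the threshold itself. Of 9 noncoding and snoRNA host RNAs listed, whose introns carry small nucleolar RNAs in most cases, 7 were induced (77.8%) and 0 lowered. The median was 1.32. Snhg1 was at 59.8 and 64.9 in control and at 162.2 and 197.8 in TM, Zfas1 at 51.5 and 46.5 and at 121.4 and 123.9, and Malat1 had a log2 fold change of 0.03. With GC content and length corrected for the count was 4, as in 1 fit over the 40 founder libraries.

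**Figure D3:**
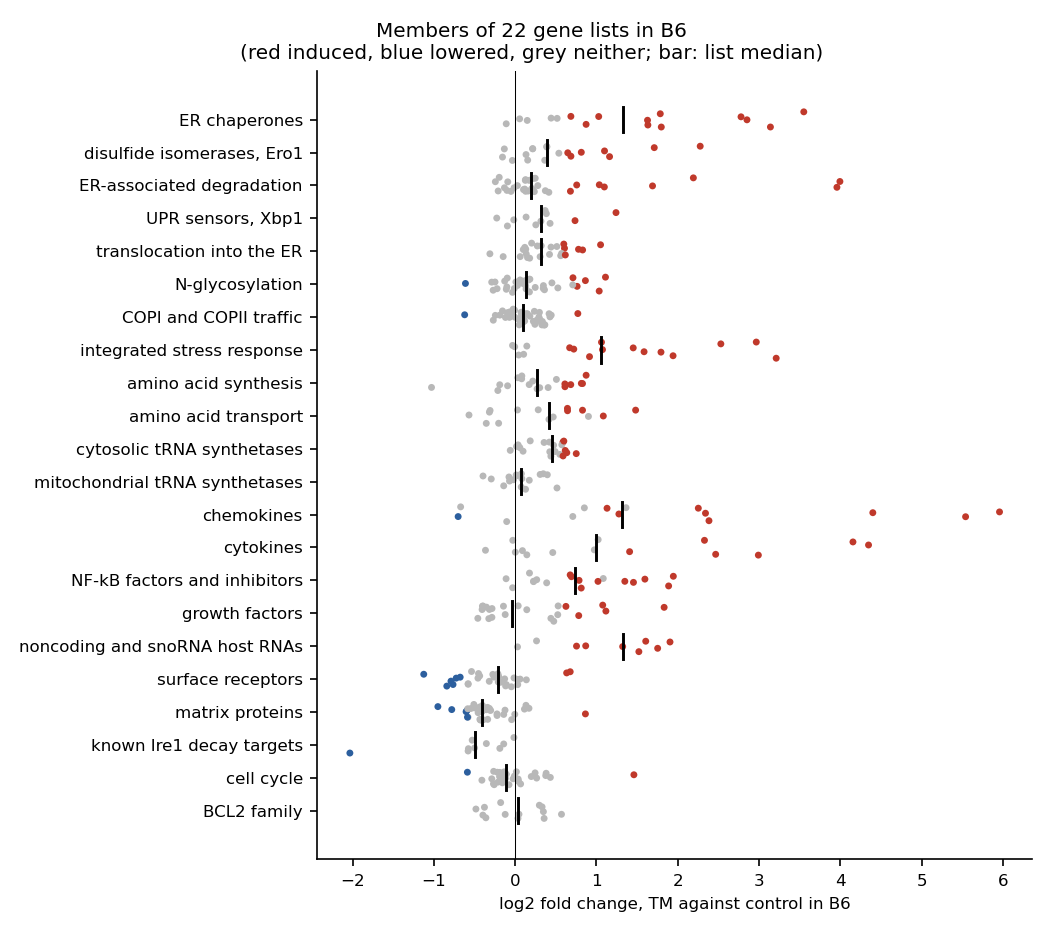
Each point is a tested member of 1 of 22 gene lists, by its log2 fold change, TM against control in B6 (red induced, blue lowered, grey neither), and the black bar is the list's median. The medians are highest in the ER chaperones (1.33), the noncoding and snoRNA host RNAs (1.32), the chemokines (1.32) and the integrated stress response (1.06), and lowest in the known Ire1 decay targets (-0.50) and the matrix proteins (-0.40).

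Large changes were rarer among the lowered genes. Among called genes with a mean value of at least 2, the 12 most lowered were Scara3, Apc2, Oaf, 4930500M09Rik, Ier5l, Hdhd3, Cemip2, Pkd1, Cdc42ep2, Pbxip1, Retreg3 and Hspg2, with fold changes from 4.09 down to 2.62. Of these, 4930500M09Rik is annotated as an antisense RNA, whose reads may belong to the gene on the other strand. Scara3, a scavenger receptor whose mRNA is a known target of Ire1 decay (chr14:65919394-65953935 on GRCm38), was at 23.8 and 24.5 in control and at 5.75 and 5.91 in TM, a log2 fold change of -2.03 ± 0.13 (SE) with an adjusted p of 6.99e-09 in limma. Of the other 8 known decay targets listed none passed, with log2 fold changes between -0.58 (Pdgfrb) and -0.01 (Pmp22), all below 0. The lowered count was 3 without TM replicate 3 and 2 without TM replicate 1, without control replicate 3 or with GC content and length corrected for.

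Other genes among the 12 are described here by their values. Oaf, a secreted protein, was at 222.5 and 209.0 in control and at 76.7 and 73.5 in TM, and Cemip2, a membrane hyaluronidase, at 78.2 and 79.0 and at 27.6 and 27.8. Retreg3, an ER-phagy receptor, was at 27.9 and 27.8 in control and at 10.9 and 10.2 in TM, and it was the only one of 14 genes of autophagy and ER-phagy tested that passed. Its relative Retreg1 had a log2 fold change of 0.47. Pkd1, the polycystin gene, was at 411.2 and 415.6 in control and at 162.2 and 134.1 in TM.

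The 10 genes that lost most reads, again without regard to transcript length, included matrix genes. Fn1, fibronectin, was at 13066 and 12263 in control and at 8566 and 8219 in TM, and so fell by 4271 on average, a change of 1.51 fold. Fbln2, a fibulin, was at 4539 and 4557 and at 2748 and 2554, and Hspg2, the perlecan gene, at 2920 and 2988 and at 1204 and 1058. The remaining 7 of the 10 were Lrp1, an endocytic receptor, Plec, Timp3, Nid1, Col6a3, Fasn and Angptl2. Of 35 matrix genes tested 5 were lowered (14.3%, against 3.22% of all genes tested), namely Nid1, Fbln2, Col6a3, Fn1 and Fbn2. Col5a3 was induced (2.86%, against 5.04%), and 31 of the 35 had log2 fold changes below 0 (median -0.40). Several lay just under the fold threshold, among them Fbn1 and Col3a1 (both -0.58). The lowered count was 2 without control replicate 2 or without TM replicate 3, and 1 in 1 fit over the 40 founder libraries. Of 13 genes of collagen modification and folding 0 were called by limma or edgeR and 7 had an unadjusted p below 0.05.

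Of 32 surface receptors 6 were lowered (18.8%, against 3.22% of all genes tested) and 2 were induced (6.25%, against 5.04%). The median was -0.21. The lowered ones were Notch3, Fzd2, Tgfbr3, Ptch1, Lrp5 and Notch1. Notch3 was at 11.3 and 10.0 in control and at 4.998 and 4.66 in TM, and Fzd2, a Wnt receptor, at 53.8 and 57.2 and at 29.4 and 32.6. Osmr, a receptor subunit of the Il6 family, and Acvr2a, an activin receptor, rose 1.55 and 1.60 fold. The lowered count was 3 without control replicate 2 and 1 in 1 fit over the 40 founder libraries. The induced count was 0 in that fit, without control replicate 3 and with GC content and length corrected for. Id1 and Id2, targets of BMP signals, fell by 1.02 and 0.76 on the log2 scale, while Ccn1 and Ccn2 had changes of 0.18 and 0.08.

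Genes of other stress programs and families are given by their counts, beside 5.04% induced and 3.22% lowered over all genes tested. Of 16 cytosolic heat shock genes 0 were induced and 1, Hspa1b, was lowered, which may share reads with its near-identical copy Hspa1a and is uncertain. Of 9 mitochondrial chaperones and proteases 0 were called by limma or edgeR and 7 had an unadjusted p below 0.05 (median 0.35), and of 13 NRF2 genes only Slc7a11 was induced. Of 17 genes of glucose uptake and glycolysis 0 were called by limma or edgeR and 16 had an unadjusted p below 0.05 (median -0.23). Without the share of all genes tested at that p, these counts do not show a response of the list. Of 32 cell cycle genes Cdc6, a replication licensing factor, was induced, from 10.0 and 9.32 to 26.7 and 26.9, and Ccnd3 was lowered. Of 12 genes of regulated mRNA decay Arid5a and Mex3b were induced (2.46 and 1.92 fold) and Mex3d was lowered (1.51 fold). Of 76 ribosomal protein genes 1 was induced (Rpl22l1) and of 76 respiratory chain genes 1 was lowered (Uqcr11), or 11 without TM replicate 3.

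Zinc finger genes, many of which encode DNA-binding repressors, form a large family. Of 313 genes tested whose symbols mark them as zinc finger genes, 47 (15.02%, against 5.04% of all genes tested) were induced and 2 (0.639%, against 3.22%) lowered, with a median of 0.24, and 239 had values above control on average. Zfp324 was at 8.79 and 8.002 in control and at 24.4 and 23.6 in TM (2.84 fold), and Zfp57, which maintains methylation at imprinted genes, at 18.2 and 18.0 and at 48.6 and 51.9 (2.76 fold). These were the largest 2 changes of the family. Near-identical family members can share reads, so single members are uncertain. The induced count was 18 without control replicate 3, 26 without control replicate 2, 21 with GC content and length corrected for and 15 in 1 fit over the 40 founder libraries.

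Induced and lowered genes differed in the base composition of their transcripts. The median GC content was 45.4% in induced genes, 50.8% in genes that were neither and 56.4% in lowered genes, and the median transcript length 1590, 1447 and 2222 bases. When genes were split into 4 equal bins by GC content, 341 were induced and 11 lowered in the lowest bin, and 54 and 233 in the highest. The median log2 fold change was 0.24 in the lowest bin and -0.22 in the highest. Between the replicates of a group the same medians differed less: control replicate 3 minus replicate 2 gave -0.08 and 0.03, and TM replicate 3 minus replicate 1 gave 0.01 and -0.04. The shift had the same sign in all 13 genotypes, between 0.10 in xWSB and 0.59 in 129 for the lowest bin minus the highest, against 0.46 in B6. Its part in the result was not tested, but a fit on values corrected for GC content and length called 432 induced and 226 lowered genes, of which 346 and 170 were among those above.

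**Figure D4:**
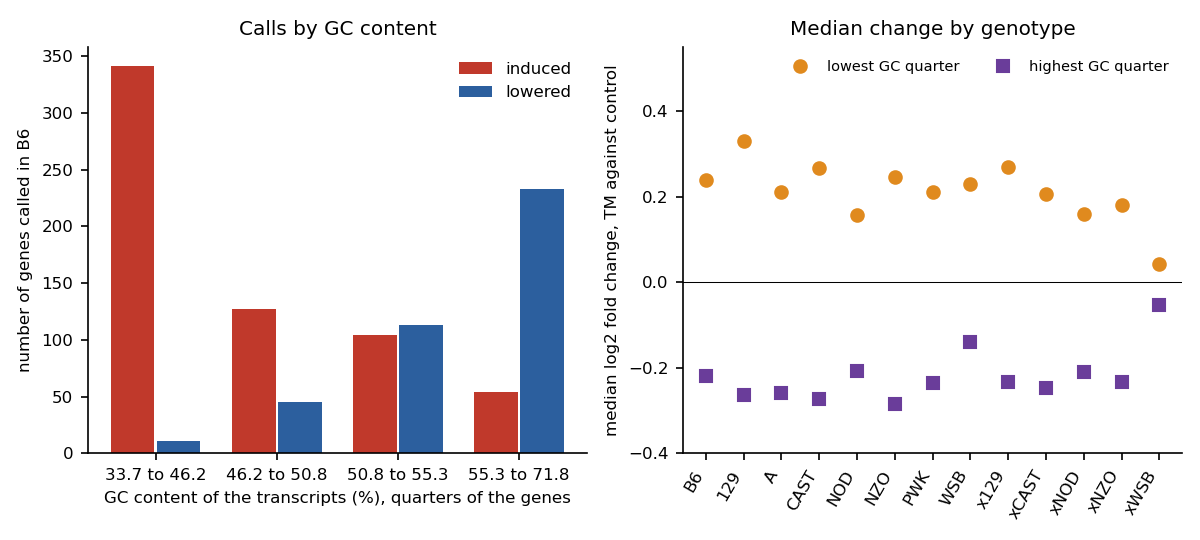
Left, the numbers of induced (red) and lowered (blue) genes in B6 in 4 equal bins of genes by transcript GC content, from 341 and 11 in the lowest to 54 and 233 in the highest. Right, the median log2 fold change, TM against control, of the lowest (orange circles) and highest (purple squares) bin in each of the 13 genotypes, positive in the lowest and negative in the highest in every one.

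Most genes called in B6 had a change of the same sign in the other genotypes, whose libraries are separate from those of B6. Of the 639 induced genes 599 (93.7%) had a log2 fold change above 0 in all 7 other founder strains, and of the 408 lowered genes 366 (89.7%) had one below 0. Within a genotype, between 96.2% (xWSB) and 100% (NZO) of the induced genes that could be tested were above 0, against 44.1% to 50.05% of the genes called neither in B6. Of the lowered genes, between 94.1% (NOD) and 99.5% (A and xNZO) were below 0, against 49.95% to 55.9%. The median change of the induced genes ran from 0.62 in xWSB to 0.90 in WSB, and that of the lowered genes from -1.06 in xNOD to -0.46 in NOD. The number called in each genotype is not compared, since replicate spread differs between genotypes. Only 1 gene called in B6 was called in the opposite direction in another genotype (PWK).

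A difference of B6 from the mean of the other 7 founder strains was tested gene by gene in 1 limma fit over the 40 founder libraries. Of 13197 genes 0 (0%) passed an adjusted p of 0.01, and 181 had an unadjusted p below 0.05. edgeR's quasi-likelihood test also called 0, with 176 at an unadjusted p below 0.05. The 10 genes with the smallest adjusted p, among those with a mean value of at least 2 in B6, were Acot2, Chac1, Trib3, Car6, D6Wsu163e, Arhgef4, Kcnf1, Gdnf, Nfil3 and Arc. Acot2, a mitochondrial acyl-CoA thioesterase, had a log2 fold change of 1.12 in B6 against 1.45 to 2.47 in the other strains, a difference of -0.87 ± 0.16 (SE; adjusted p = 0.136, limma). Chac1 had 1.79 against 2.15 to 3.35 and Trib3 1.94 against 2.23 to 3.85, both with an adjusted p of 0.376. In these 3 genes B6 was the lowest of the 8 strains.

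The same order held in much of the integrated stress response as a description. Among its 12 members induced in B6, B6 had the lowest fold change of the 8 strains in 6 and was among the 3 lowest in 11. The 6 include Chac1 and Trib3, which were picked above for their small p. The same shares over all 639 induced genes were 6.57% and 26.0%. Ddit3 had a log2 fold change of 3.21 in B6 against 3.59 to 4.33 in the others, and Atf4 0.92 against 0.99 to 1.50. Of the 6 synthetases induced in B6, B6 was among the 3 lowest in all 6, and of the 6 amino acid synthesis genes in 5. Low ranks were not particular to these lists. B6 was the lowest in 4 of 5 induced AP-1 and immediate early genes. It was among the 3 lowest in 4 of 5 induced amino acid transporters, but in 2 of 8 induced chemokines. Of the 11 ER chaperones induced it was among the 3 lowest in 0, as for Hspa5 with 2.85 against 2.52 to 3.06. None of these genes passed the test of a difference, and members of a pathway share their B6 libraries.

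**Figure D5:**
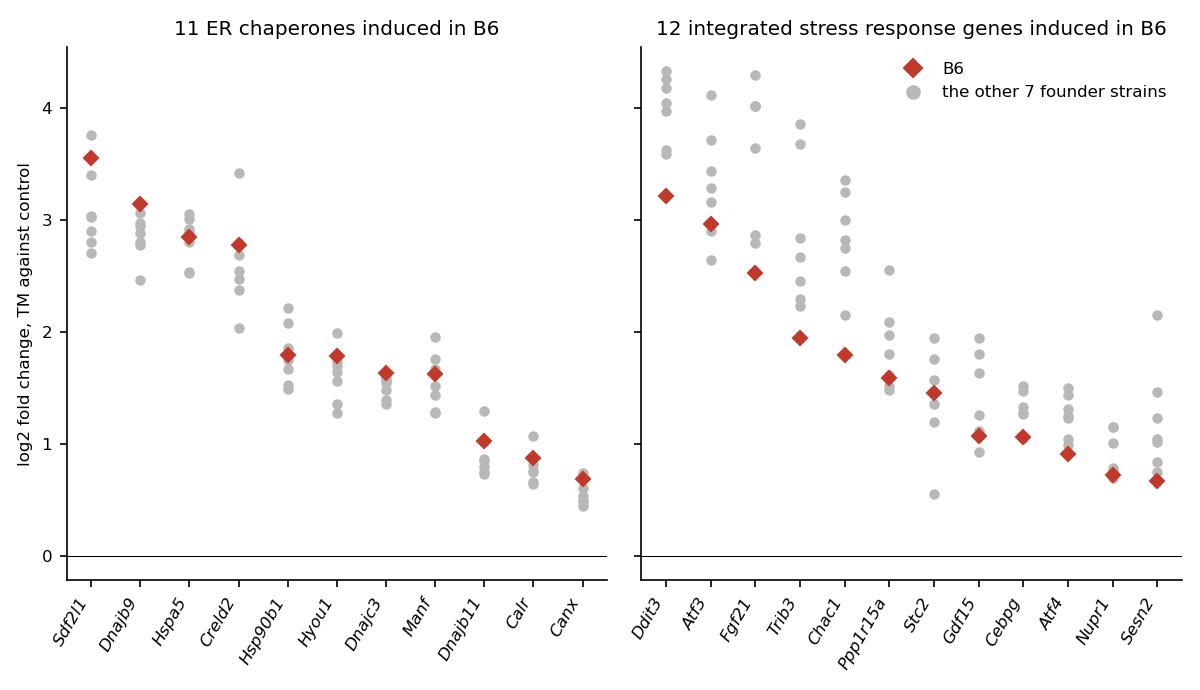
Log2 fold change, TM against control, of the 11 ER chaperones (left) and the 12 integrated stress response genes (right) induced in B6, in B6 (red diamonds) and in each of the other 7 founder strains (grey circles). B6 lies within or above the other strains in the chaperones and is the lowest in 6 of the 12 genes on the right, among them Ddit3, Trib3 and Chac1.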

How the data were processed

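RNA-seq was made from MEFs treated with TM or DMSO. The deposited values, a signal labelled FPKM, were made by the authors with TopHat 1.4.1 on strain-specific genomes, TMM scaling in edgeR and removal of libraries by principal component analysis. The values are whole multiples of 1 step per library (100% within 0.02 of a step in the B6 libraries), so they are TMM-scaled reads, not per length, and the step gave back the reads. Normalized values had been assumed beforehand. Lines of the F1 tables that name no gene held 15.5% to 24.1% of their signal and were left out. Gene names were found for 13047 of 13197 identifiers, 13023 from GENCODE M21 on GRCm38 and 24 from the study's supplementary tables.

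Here log2(value + 0.1) was fitted with limma 3.58.1 (trend, Benjamini-Hochberg) in R 4.3.3, on the 4 B6 libraries for genes with at least 0.5 in at least 2 of them, at an adjusted p of 0.01 and 1.5 fold. The B6 difference was an interaction contrast over 40 founder libraries. edgeR 4.0.16 was run on the recovered reads as an alternative. Summaries were made in Python 3.11.15 with pandas 2.3.3, numpy 2.4.6 and scipy 1.17.1, and plots with matplotlib 3.10.9. The fit was tested on simulated data. The 2 control libraries held 21530282 and 9651004 reads on genes, and the 2 TM libraries 10196948 and 18461144. Intervals and floors cover counting error only.

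Genes were named by rule: the 12 largest rises and the 12 largest falls of called genes with a mean value of at least 2, the 10 largest gains and losses in mean value, the 10 smallest adjusted p of the B6 difference, and members of the gene lists that define a list or changed most. Single genes with low reads, antisense RNAs or near-identical copies, and genes with motif matches, were named after their values were seen. The genes, lists and alternatives were chosen with earlier results of these data known. Alternatives were the pseudocount, filter, scaling, variance trend, shared fit, replicate block, each library left out and, chosen after seeing the data, a loess correction for transcript GC content and length. Columns of the authors' own comparisons and protein sequences were not used here. Not every gene list is reported here.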

Additional observations from a re-analysis of the deposited data

How the results depend on the processing

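All counts are of induced and lowered genes in B6, against 639 and 408. Median-of-ratios scaling, edgeR, a false discovery rate of 5%, a pseudocount of 1, testing without a filter or only genes with a mean of 2 or more kept both counts within 1.5 times. Without the variance trend they were 14 and 3, in 1 fit over the 40 founder libraries 257 and 62, and with GC content and length corrected for 432 and 226. Leaving out 1 B6 library gave 360 to 623 induced and 182 to 469 lowered genes, the lowest counts without control replicate 3. No called gene changed sign under these alternatives. Of the 220 genes named or listed that were called, 217 kept their call in edgeR, 145 without control replicate 3, 109 in the shared fit, and 13 each without the variance trend and with the replicate block.

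B6 control and TM libraries share only replicate number 3, whose deviations from the group means had a correlation of 0.01 over 11092 genes. Each deviation is taken against a different partner library, and the labels do not say what the number marks. The correlation therefore cannot tell whether the number pairs the libraries. Since the other replicate numbers differ between the groups, no blocked fit within B6 could be made. With a replicate block in the fit over 40 libraries, 18 genes were induced and 0 lowered by limma, with 244 lowered at an unadjusted p below 0.05. The test of a B6 difference called 0 genes under every alternative run, the replicate block included, with 95 to 267 genes at an unadjusted p below 0.05. With 2 libraries a group, 2 residual degrees of freedom remain per gene, and the spread of a single gene is poorly known.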
